A study of Mus musculus with 12 samples.

Results

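Mature mouse miRNAs were examined whose miRBase accessions run from MIMAT0016978 to MIMAT0017349, a block of entries for the opposite, or passenger, strands of mouse miRNA hairpins. The members were set by a range of accession numbers and not by their counts, though earlier results of these data were known when the range was chosen. The block spans 372 accession numbers, and 103 of them (27.7%) were listed with at least 1 count in at least 1 of 12 serum libraries, out of 874 mouse miRNAs listed in all. The other 269 numbers had no count in any library. The sources used here do not pair these accessions with miRNA names or sequences, so the members are given by accession, and whether each one is the less used strand of its hairpin was not checked. Whether all 372 numbers belong to mouse entries was not checked either.

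A miRNA hairpin is cut into a short duplex of paired strands, one from its 5′ arm and one from its 3′ arm. Usually one strand is kept in an Argonaute protein and guides the silencing of mRNAs, while the other, the passenger strand, is mostly degraded. Some passenger strands are also loaded and silence targets of their own, and which arm is used more can differ between tissues. In serum, miRNAs circulate bound to protein or inside vesicles, and much of the miRNA in blood comes from blood cells.

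The libraries came from 3 female athymic NCr nude mice (mice 1046, 1047 and 1069), which were 4 to 6 weeks old when the xenografts were made. Serum was drawn from each mouse before SH-SY5Y cells, an established human neuroblastoma line, were implanted beneath the renal capsule, and again 2 weeks after. RNA from 50 μl of each serum was sequenced both undepleted and after 5′ tRNA fragments had been captured with biotinylated DNA probes and streptavidin beads, which gave 4 groups of 3 libraries. All groups share the nude background, a host that lacks mature T cells, and no tumor-free mouse was sampled at the later time point, so tumor, time and surgery cannot be told apart. Depleted libraries held 938706 to 2271549 mouse miRNA counts and undepleted ones 21235 to 97183, the smallest being the undepleted aliquot drawn from mouse 1069 before injection. With serum counts, fewer source cells of a type and less RNA from each such cell cannot be told apart. Shares are relative to all mouse miRNA counts of the library.

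First, it was evaluated how much of the serum miRNA signal the block makes up. The 103 members were 11.8% of the listed mouse miRNAs and held 16870 counts, 0.164% of all mouse counts. The share was between 0.128% and 0.180% in each of the 12 libraries. No member was among the 100 miRNAs with the most counts, and 11 were among the first 200. The largest member, MIMAT0016988, held 3760 counts over the 12 libraries and ranked 101st of 874.

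The counts within the block were concentrated in few members. MIMAT0016988 alone held 22.3% of the block, and MIMAT0017056 was next with 2168 counts, so that these members together held 35.1%. The first 5 members held 61.7%, the first 10 held 81.1% and the first 15 held 89.5%. The median member had 7 counts over 12 libraries, against 22 for the 771 other listed miRNAs. Of the members, 13 had a single count in all, and 25 were listed in only 1 library.

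The listed members were also unevenly placed along the range of accession numbers. Whether the unlisted numbers are mouse entries was not checked, so the values below are not detection rates of mouse strands. No number between MIMAT0017084 and MIMAT0017169 was listed. Of the first 93 accession numbers, MIMAT0016978 to MIMAT0017070, 62 (66.7%) were listed. In the next 3 stretches of 93 numbers, which begin at MIMAT0017071, MIMAT0017164 and MIMAT0017257, 8, 11 and 22 were listed. The first stretch held 81.6% of the block's counts, and the following ones held 10.6%, 5.82% and 2.00%. The last stretch thus had more listed members than the second, but fewer counts.

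**Figure D1:**
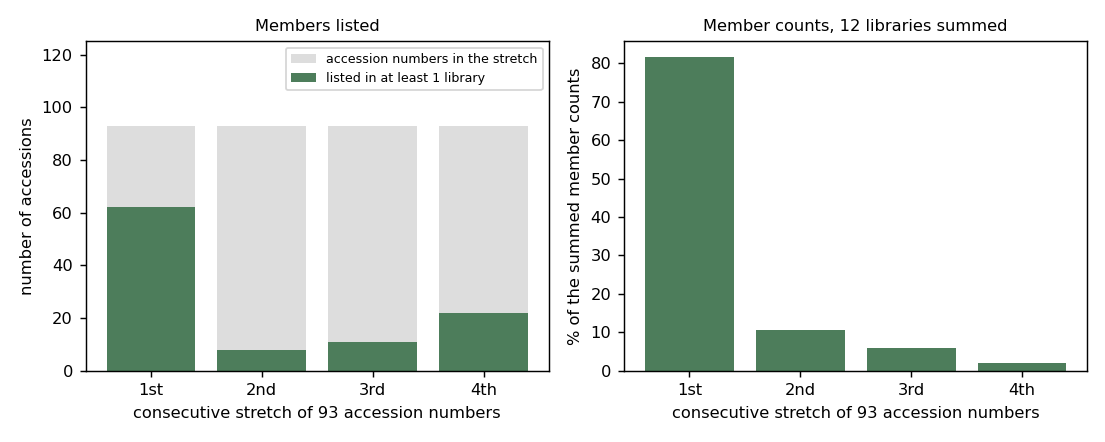
Left: accession numbers in each of 4 consecutive stretches of the block (grey, 93 each) and how many of them were listed in at least 1 library (green). Right: percent of the summed member counts of the 12 libraries that each stretch holds, with 81.6% in the first. Whether every number in a stretch is a mouse entry was not checked.

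The same reads can be counted for mouse and for human where a mature miRNA has the same sequence in both species. None of the 103 accessions was listed in the human tables, which use accessions of their own. Of the 21 members with at least 100 counts, 8 (38.1%) had a human entry with identical counts in all 12 libraries, and these 8 held 21.1% of the block's counts. Among other mouse miRNAs with at least 100 counts, 263 in number, 48.7% had such an entry. MIMAT0017036, the fourth largest member, was among the 8. For MIMAT0016988 and MIMAT0017056, the nearest human entry differed from the member by summed differences of 0.16% and 0.046% of its counts, so that nearly all of their counts also appear in a human entry. With a tolerance of 10%, these members made 10 of 21.

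Next, detection was compared between the aliquots of each serum, to see how many members the depletion brought into view. Depleted libraries listed 55 to 68 members and undepleted ones 12 to 25. At the study's cut-off of 4 counts, 34.2 ± 5.6 members were detected in depleted libraries (SD, n = 6, range 27 to 41) and 7.33 ± 2.50 in undepleted ones (SD, n = 6, range 4 to 11). The groups did not overlap. Of the other miRNAs, 383 ± 34 were detected in depleted libraries (SD, n = 6, range 346 to 422). In undepleted libraries 150 ± 18 of them were (SD, n = 6, range 118 to 165), again without overlap. Each serum gained 19 to 35 members (mean 26.8 ± 6.3, SD, n = 6 sera), and the gain was positive in 6 of 6 sera (exact two-sided sign-flip permutation test, p = 0.03125, and 6 pairs cannot give less). The 6 sera come from 3 mice.

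Depleted and undepleted libraries also differed in depth. When the expected number of detected members was computed for every library at 21235 counts, the depth of the smallest one, it was 2.89 ± 0.51 in depleted and 2.52 ± 0.85 in undepleted libraries (SD, n = 6 each). The difference was then 0.370 members (SD 1.19, exact sign-flip permutation test, p = 0.5). It was positive in 5 of 6 sera, and the exception was the serum whose undepleted library set the depth. Without that serum, in a comparison chosen after seeing the data, the difference was 0.749 members (SD 0.828, n = 5, with p = 0.0625 by the exact sign-flip permutation test, and 5 pairs cannot give less). Few members can reach 4 counts at this depth, so a difference could hardly show.

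**Figure D2:**
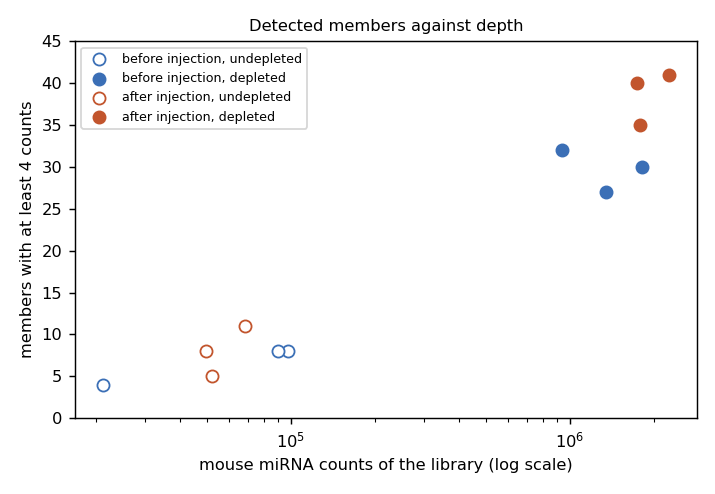
Members with at least 4 counts in each of the 12 libraries (y axis) against the library's mouse miRNA counts (x axis, log scale), with filled points for depleted and open points for undepleted libraries. The 6 undepleted libraries lie between 4 and 11 members and the 6 depleted ones between 27 and 41.

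Of the 103 members, 63 (61.2%) were listed in depleted libraries only, against 47.9% of the other miRNAs, and 3 were listed in undepleted libraries only. All 6 depleted libraries listed 35 members (34.0%, against 45.5% of the others), and all 12 libraries listed 6 members (5.83%, against 20.8%). A total of 46 members never reached 4 counts in any library. The remaining 57 (55.3%) did so, compared with 69.1% of the other miRNAs. In all 6 depleted libraries, 23 members reached 4 counts. In undepleted libraries only 13 members reached 4 counts in any of the 6. These shares are given as a description, since members have fewer counts than the other miRNAs.

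The 6 members listed in every library were MIMAT0016988, MIMAT0017056, MIMAT0017075, MIMAT0017036, MIMAT0017018 and MIMAT0016991. In undepleted libraries, even the largest of them, MIMAT0016988, had only 9 to 45 counts, against 333 to 987 counts in depleted libraries. MIMAT0017056 had 1 to 13 counts in undepleted and 71 to 733 counts in depleted libraries. The 6 undepleted libraries together held 377955 mouse miRNA counts, compared with 9902053 in the depleted ones.

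The summed counts of the block and its share of the library were then compared. The 6 depleted libraries held 2724 ± 746 member counts (SD, range 1591 to 3587) and the 6 undepleted ones 87.8 ± 34.8 (SD, the lowest being 38). The ratio of depleted to undepleted member counts ranged from 15.6 to 47.8 over the 6 sera (log2 ratio 5.01 ± 0.63, SD, n = 6, p = 0.03125 by the exact sign-flip permutation test). Across all other mouse miRNAs, the ratio ranged from 13.9 to 45.9. The log2 ratio of the members exceeded that of the other miRNAs by 0.20 ± 0.19 (SD, n = 6). It did so in 5 of 6 sera, and the difference did not pass the test (exact sign-flip permutation test, p = 0.09375).

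The same comparison was made on shares. Members held 0.155%, 0.155% and 0.169% of the counts of the depleted libraries drawn before injection from mice 1046, 1047 and 1069, and 0.138%, 0.128% and 0.179% of the matching undepleted ones. After injection the depleted libraries held 0.180%, 0.175% and 0.158%, and the undepleted ones 0.144%, 0.129% and 0.152%. Depleted and undepleted libraries overlapped, and the serum drawn from mouse 1069 before injection was the only one in which the undepleted share was higher. That undepleted value rests on 38 counts, with a 95% Wilson interval of 0.130% to 0.246%, which covers counting error only. The mean share was 0.165% ± 0.011 in depleted and 0.145% ± 0.019 in undepleted libraries (SD, n = 6 each). The difference within sera was 0.0205 percentage points (SD 0.0202, n = 6, with p = 0.09375 by the exact sign-flip permutation test), so it did not pass the test.

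**Figure D3:**
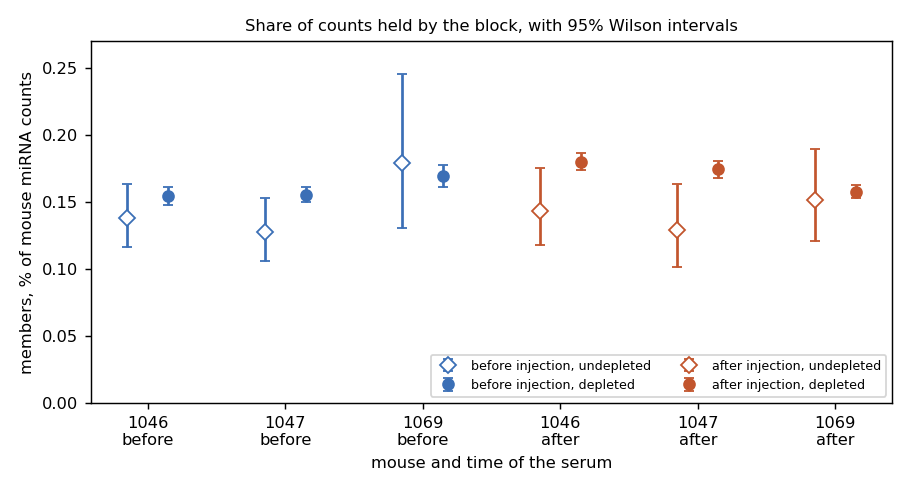
Percent of mouse miRNA counts held by the members in each library (y axis), by mouse and time of the serum (x axis), with 95% Wilson intervals. Filled points are depleted and open points undepleted libraries, and the depleted share was the higher one in 5 of 6 sera.

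The effect of depletion on each member was tested with DESeq2, in a fit over all 874 mouse miRNAs with time point as a covariate. The 2 aliquots of a serum were not paired in this fit. Calls required both an adjusted p-value (Benjamini-Hochberg) below 0.05 and at least a 2-fold change. None of the 30 members that passed independent filtering was called, where 4.96% of all 383 tested miRNAs were called higher and 3.39% lower in depleted libraries. With DESeq2, 0 of the 103 members had an unadjusted p-value under 0.05, and with edgeR's quasi-likelihood test 5 of 103 did, of which 1 was called. Over all 874 miRNAs, whether or not they passed the filter, 83 had such a p-value with DESeq2. With edgeR 108 of the 874 had one, and 5.03% were called. Log2 fold changes of the 30 members ranged from -1.34 to 1.47, with standard errors of 0.24 to 0.90. The median log2 fold change was -0.10 for members and -0.04 for all tested miRNAs. The 95% intervals of 7 of the 30 members lay wholly within a 2-fold change in either direction, and those of the other members reached beyond it. These errors and intervals are those of the unpaired fit. With serum as a block, 0 of 44 tested members were called, where 27 of all 467 tested miRNAs were.

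The most precisely measured member was MIMAT0016988. Its level, scaled to 1000000 mouse miRNA counts per library (CPM), was 475, 542 and 573 in depleted and 463, 356 and 612 in undepleted libraries of mice 1046, 1047 and 1069 before injection. After injection it was 348, 292 and 147 CPM in depleted and 279, 289 and 182 CPM in undepleted libraries. Neither aliquot was the higher one throughout, and the log2 fold change between them was 0.02 (SE 0.24, DESeq2 adjusted p-value 0.959). For MIMAT0017056, the log2 fold change was 0.64 (SE 0.42, DESeq2 adjusted p-value 0.394), with the depleted aliquot higher in 4 of 6 sera.

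The member with the highest log2 fold change upon depletion was MIMAT0016996, the only member called by edgeR. It had 22, 21 and 7 counts in the depleted libraries of mice 1046, 1047 and 1069 before injection, 26, 33 and 23 counts after it, and 0 in each undepleted library. Its pooled level was 13.3 CPM in depleted libraries, while 3 counts of the pooled undepleted libraries correspond to 7.94 CPM. The pooled depleted level was thus 1.68-fold above this floor, which is a ratio to a chosen floor and not a tested lower bound. The DESeq2 log2 fold change of 1.47 (SE 0.76, adjusted p-value 0.245) was not called. Its confidence interval, of the same level as those given above, ran from -0.02 to 2.96 and so included no change. MIMAT0017052 had a log2 fold change of 0.93 (SE 0.51, DESeq2 adjusted p-value 0.275). It was higher upon depletion in 6 of 6 sera, with only 0 to 3 counts in every undepleted library. MIMAT0017076 had one of -1.34 (SE 0.81, DESeq2 adjusted p-value 0.343), with 0 to 1 count in every undepleted library.

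Serum drawn before and after tumor cell injection was compared next, within depleted libraries. As a whole, the block made up 0.160% ± 0.008 of mouse counts before and 0.171% ± 0.012 after injection (mean ± SD, n = 3 each). The share was higher after injection in 2 of 3 mice, and the difference of 0.0110 percentage points did not pass the test (exact permutation test, p = 0.2, where 3 against 3 cannot give less than 0.1). Beneath this total, and as shares of mouse counts, the largest member was lower and the sum of the other members higher in every mouse. The summed block was not compared on counts normalised with DESeq2's size factors. On that scale MIMAT0016988 went from 933.9 to 379.1, against 530.2 to 262.1 as mean CPM. MIMAT0017075 went from 239.1 to 279.0, against 133.8 to 191.5 as mean CPM. The direction of the block's change can therefore depend on the scaling.

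In depleted libraries, MIMAT0016988 made up 0.0530% ± 0.0050 of mouse counts before and 0.0262% ± 0.0104 after injection (mean ± SD, n = 3 each). It was lower after injection in 3 of 3 mice, and the groups did not overlap (exact permutation test, p = 0.1). All remaining members together made up 0.107% ± 0.005 before and 0.145% ± 0.001 after injection (SD, n = 3 each), higher in 3 of 3 mice and again without overlap (exact permutation test, p = 0.1). Both p-values are the smallest that 3 against 3 allows. As a part of the block, MIMAT0016988 held 33.1% ± 2.2 before and 15.1% ± 5.2 after injection (SD, n = 3 each).

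The undepleted libraries gave values of the same order. MIMAT0016988 made up 0.0477% ± 0.0129 of mouse counts before and 0.0250% ± 0.0059 after injection, lower in 3 of 3 mice (SD, n = 3 each, exact permutation test, p = 0.1). The remaining members made up 0.101% ± 0.015 before and 0.117% ± 0.017 after injection (SD, n = 3 each), with overlapping groups (exact permutation test, p = 0.3). The whole block went from 0.148% ± 0.027 to 0.141% ± 0.012, a difference of -0.00671 percentage points (SD, n = 3 each, exact permutation test, p = 0.9), and this difference turned to 0.00356 without mouse 1069.

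**Figure D4:**
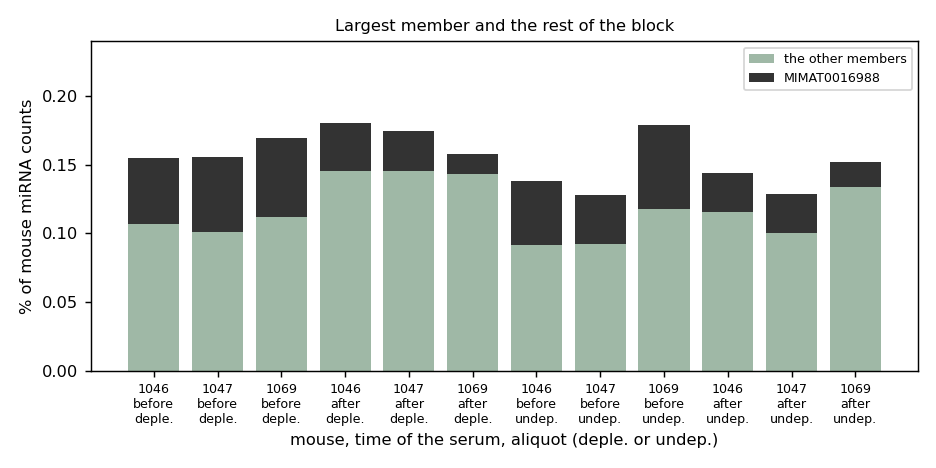
Percent of mouse miRNA counts (y axis) held by MIMAT0016988 (dark) and by all other members (light) in each of the 12 libraries. In depleted libraries the dark part is smaller and the light part larger after injection in all 3 mice.

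The level of an abundant miRNA outside the block differed over the same interval. mmu-miR-16-5p, which is abundant in red blood cells and enters the denominator of every share, went from 12.0% ± 1.0 to 6.69% ± 1.04 of mouse counts in depleted libraries (SD, n = 3 each) and from 16.6% ± 1.8 to 8.96% ± 1.65 in undepleted ones (SD, n = 3 each), lower in 3 of 3 mice (exact permutation test, p = 0.1 in both). Its part in the member values was not tested.

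In depleted libraries, more members reached the cut-off after injection in every mouse. There, 27, 30 and 32 members reached 4 counts in mice 1046, 1047 and 1069 before injection, and 35, 40 and 41 did so after it. The groups did not overlap (means 29.7 ± 2.5 and 38.7 ± 3.2 with SD, n = 3 in each, and p = 0.1 by the exact permutation test). The summed member counts also went from 2169 ± 624 to 3279 ± 280 (SD, 3 libraries each), and the depleted libraries of mice 1046 and 1069 were deeper after injection. At the depth of the smallest library the expected numbers were 2.49 ± 0.08 and 3.29 ± 0.41 (SD, n = 3 in each, with p = 0.1 by the exact permutation test). In undepleted libraries 8, 8 and 4 members reached 4 counts before and 11, 5 and 8 after injection, higher in 2 of 3 mice (exact permutation test, p = 0.7), and the expected numbers at the smallest depth were 2.80 ± 1.04 and 2.24 ± 0.71 (SD, n = 3 in each, with p = 0.6 by the exact permutation test). In depleted libraries, other miRNAs at 4 counts went from 352 ± 9 to 413 ± 11 (SD, n = 3 each). No member was listed in all 3 depleted libraries of one time point and in none of the other.

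Individual members were tested between time points with DESeq2 in the 6 depleted libraries. Of 24 members that passed independent filtering, 3 were called. One member was called higher after injection, where 4.84% of all 310 tested miRNAs were called higher. A total of 2 members were called lower, where 5.81% of all tested miRNAs were. With edgeR, 4 of 100 members were called (4%), where 4.65% of all 861 miRNAs were. The median log2 fold change was 0.06 for the tested members and -0.09 for all tested miRNAs, and 13 of the 24 members lay above 0.

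MIMAT0016988 and MIMAT0017018 fell after injection. MIMAT0016988 went from 933.9 ± 132.2 to 379.1 ± 143.6 normalised counts (SD, n = 3 each), with a log2 fold change of -1.18 (SE 0.30, DESeq2 adjusted p-value 0.00167). The CPM values given above show the lowest level in mouse 1069 after injection, while the groups do not overlap. MIMAT0017018, the fifth largest member, had 218.1, 167.5 and 184.3 CPM before and 115.1, 100.5 and 67.8 CPM after injection in mice 1046, 1047 and 1069. It was lower in 3 of 3 mice without overlap, at 335 ± 59 and 136.9 ± 32.3 normalised counts (SD, n = 3 each) and a log2 fold change of -1.18 (SE 0.30, DESeq2 adjusted p-value 0.00134).

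MIMAT0017169 rose after injection. It had 59.3, 39.5 and 14.9 CPM before and 106.7, 154.5 and 87.2 CPM after injection in mice 1046, 1047 and 1069, so the groups did not overlap. Normalised counts were 69.5 ± 43.2 and 168 ± 48 (SD, n = 3 each), with a log2 fold change of 1.06 (SE 0.39, DESeq2 adjusted p-value 0.0440). MIMAT0017056 had 109.0, 134.6 and 75.6 CPM before and 221.2, 310.1 and 322.7 CPM after injection, also without overlap. Its log2 fold change of 0.99 (SE 0.32, DESeq2 adjusted p-value 0.0184) passed the adjusted p-value but was just short of 2-fold. It was called by edgeR (log2 fold change 1.104, adjusted p-value 0.0180) and by DESeq2 without the prior (1.099, adjusted p-value 0.0200), while its adjusted p-value was 0.0686 without mouse 1046 and 0.0769 without mouse 1047. Over its 8 alternatives the adjusted p-value ranged from 0.0180 to 0.0769. After injection MIMAT0017056, not MIMAT0016988, was the member with the most counts in the depleted libraries of mice 1047 and 1069.

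All 3 calls were lost without mouse 1047. Calls over all miRNAs then went from 33 of 310 to 11 of 285 (3.86%). Of the 21 members still tested, 0 were called, with log2 fold changes of -1.05 for MIMAT0016988 (DESeq2 adjusted p-value 0.117), -1.10 for MIMAT0017018 (adjusted p-value 0.103) and 0.84 for MIMAT0017169 (adjusted p-value 0.346). The log2 fold change of MIMAT0017169 was 0.88 without mouse 1069, below the 2-fold cut-off, and its adjusted p-value was 0.0550 with TMM factors. Over the 8 alternatives tried, adjusted p-values ranged from 1.51e-05 to 0.117 for MIMAT0016988, from 0.000120 to 0.103 for MIMAT0017018 and from 0.0155 to 0.346 for MIMAT0017169.

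**Figure D5:**
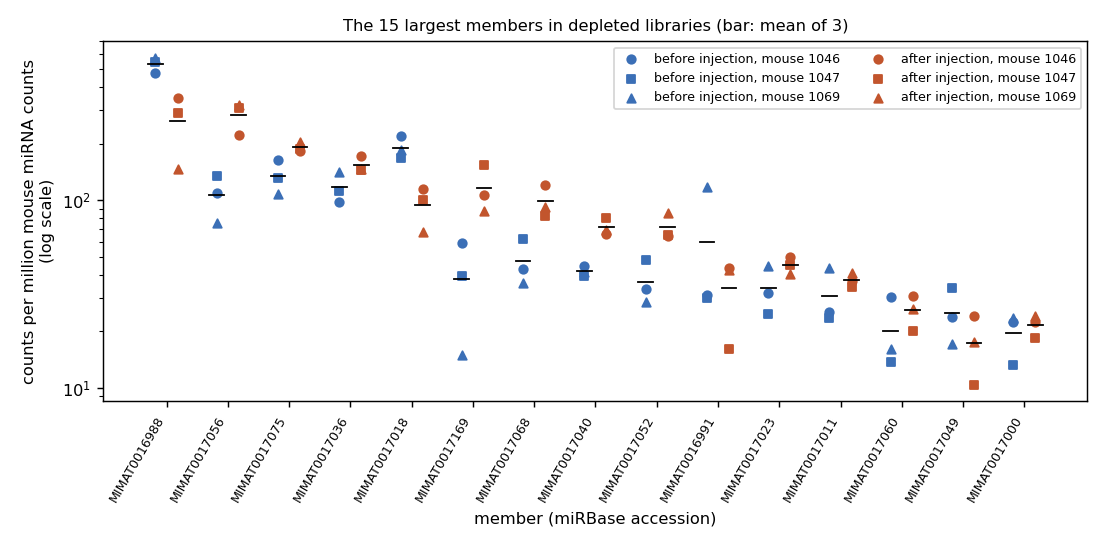
CPM (y axis, log scale) of the 15 members with the most counts (x axis) in the 6 depleted libraries, before (blue) and after (orange) injection, with a symbol for each mouse and a bar for the mean of 3. MIMAT0016988 and MIMAT0017018 lie lower and MIMAT0017056 and MIMAT0017169 higher after injection in every mouse.

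The other 11 of the 15 largest members did not pass the test, and 9 of them had a higher mean CPM after injection. Higher CPM was not particular to members. Of all 318 miRNAs with a mean of at least 10 counts in depleted libraries, 29.2% were higher without overlap and 10.1% lower. MIMAT0017075, the third largest, had 133.8 ± 27.9 CPM before and 191.5 ± 10.8 CPM after injection (SD, n = 3 each), with a log2 fold change of 0.20 (SE 0.29, DESeq2 adjusted p-value 0.683). MIMAT0017036 had 116.9 ± 21.8 and 154.1 ± 14.4 CPM (SD, n = 3 each), with a log2 fold change of 0.13 (SE 0.28, DESeq2 adjusted p-value 0.813). MIMAT0017068 had 47.1 ± 13.4 and 98.5 ± 19.8 CPM (SD, n = 3 each), with a log2 fold change of 0.64 (SE 0.35, DESeq2 adjusted p-value 0.194). For these members the CPM groups did not overlap, and the log2 fold changes of MIMAT0017075 and MIMAT0017036 were smaller than their errors. MIMAT0016991 stood out by 1 library, with 117 CPM in mouse 1069 before injection and 16.1 to 43.2 CPM in the other depleted libraries.

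Among the 24 members that had a mean of at least 10 counts in depleted libraries, the CPM values of both time points were separate for 12. In 8 of these members all values after injection were higher (33.3%, against 29.2% of all 318 miRNAs with such a mean), and in 4 they were lower (16.7%, against 10.1% of all). The members' shares were thus close to those of all miRNAs.

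Undepleted libraries held too few counts for a test of most members. A single member, MIMAT0016988, passed independent filtering, and it was not called, where 8.33% of all 108 tested miRNAs were called higher and 2.78% lower. It went from 26.99 ± 3.62 to 13.45 ± 3.18 normalised counts, lower in 3 of 3 mice, with a log2 fold change of -0.79 (SE 0.41, DESeq2 adjusted p-value 0.157). MIMAT0017018 went from 12.3 ± 3.6 to 4.94 ± 1.60 normalised counts (SD, n = 3 each), with a log2 fold change of -0.89 (SE 0.49) and no adjusted p-value, since it did not pass the filter. With edgeR, 0 of 40 members were called and 3 had an unadjusted p-value under 0.05, where 3.39% of all 442 miRNAs were called and 49 had such a p-value. With DESeq2, 0 members had one, against 35 of all 442 miRNAs, whether or not they passed the filter.

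Whether the change over time differed between depleted and undepleted libraries was tested with an interaction term over all 12 libraries. DESeq2 called 0 of 874 miRNAs (0%), and so none of the 103 members. With DESeq2, 0 members had an unadjusted p-value under 0.05, and with edgeR 3 had one, with 0% of all miRNAs called. Over all 874 miRNAs, 3 had such a p-value with DESeq2 and 11 with edgeR. The interaction on the log2 scale was -0.25 (SE 0.50) for MIMAT0016988, 0.23 (SE 0.59) for MIMAT0017018, 0.64 (SE 0.93) for MIMAT0017056 and 0.04 (SE 1.13) for MIMAT0017169. These errors leave room for differences of 2-fold in MIMAT0016988 and of more in the others.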

How the data were processed

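The deposited values are read counts per mature miRNA, not normalized, in a mouse and a human table for each of 12 libraries. Per the study's methods, the authors trimmed adaptors with Cutadapt 1.8.1, discarded reads under 15 bases, filtered on quality, mapped with Bowtie 1.1.2 without mismatches and matched coordinates to miRBase release 20 (mouse GRCm38/mm10). How reads at several loci were counted is not given in the sources used here. A missing entry was taken as 0.

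Counts were summed over the block, and shares and CPM refer to all mouse miRNA counts. Tests used DESeq2 1.42.0 in R 4.3.3 (median-of-ratios size factors, prior on fold changes, independent filtering at 0.05) across all miRNAs, with edgeR 4.0.16 (quasi-likelihood test, TMM) as an alternative, and Benjamini-Hochberg adjustment. Scripts were tested on simulated data. Exact permutation tests were two-sided and enumerated in Python 3.11.15 with NumPy 2.4.6. SciPy 1.17.1 gave the Wilson intervals and the expected numbers at the smallest depth. Aliquots of one serum and sera of one mouse are paired by the labels. Deviations of the 2 aliquots correlated with a mean r of 0.549 over 6 sera, and those of the 2 sera of a mouse with -0.152 (depleted) and -0.214 (undepleted). The members and lists were chosen with earlier results of these data known. Accessions named are the 15 members with the most counts, called members, up to 3 further members with the smallest adjusted p-values in each fit, and mmu-miR-16-5p (MIMAT0000527).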

Additional observations from a re-analysis of the deposited data

Results flagged for a closer look

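A single library stood apart from the other 5 depleted ones for MIMAT0016991. It held 117 CPM in mouse 1069 before injection, against 16.1 to 43.2 CPM in the others, a gap of 0.731 of the whole range. The undepleted aliquot of the same serum also gave the highest undepleted value, 235 CPM, from 5 counts. Of 26 values examined in this way, over 6 libraries or 6 sera each, this was the only one past Dixon's 95% critical value, which about 1 in 20 groups pass by chance.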

How the results depend on the processing

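With TMM factors the median log2 fold change of all miRNAs in the depletion fit moved from -0.04 to 0.20, and calls over all miRNAs went from 19 higher and 13 lower to 32 higher and 10 lower. In that fit edgeR called 1 member and DESeq2 called 0 under each alternative. Small log2 fold changes upon depletion changed sign: MIMAT0017018 gave 0.051 with edgeR and 0.029 with TMM factors, and with a mouse left out MIMAT0016988 gave -0.078 to 0.13 and MIMAT0017169 -0.39 (without mouse 1047) to 0.51. The log2 fold change of MIMAT0017056 over time in undepleted libraries lay between -0.025 (without mouse 1069) and 0.90 (without mouse 1047). Calls of members over time in depleted libraries ranged from 0 (without mouse 1047) to 3 when a mouse was left out. With mouse as a block, 3 members were called, and the blocked fits changed no call of a member. Without pairing of aliquots, the share difference of 0.0205 points gave an exact permutation p of 0.0476. The log2 ratio of member counts was 4.66 before and 5.37 after injection, where 3 pairs cannot give a p under 0.25, and 4.78 to 5.27 without a mouse, where 4 pairs cannot give less than 0.125. The gain in detected members was 25 to 29.5 without a mouse and 0.370 at the depth of the smallest library (0.749 without that library's serum, chosen after seeing the data). The share difference over time in undepleted libraries was 0.0160 points without MIMAT0016988 and -0.0130 to 0.00356 without a mouse. Depth limits all member values: 46 members never reached 4 counts. Ratios between the arms of a hairpin were not run, since accessions were not paired with hairpins here.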
